A study of Homo sapiens with 6 samples.

Results

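The genes described here are 10 partners of the anaphase-promoting complex (APC/C) and of the SCF ubiquitin ligase, taken by name from the 57773 Ensembl gene IDs of the RNA-seq table, all of which matched 1 ID each. They are the APC/C activators CDC20 and FZR1, its ubiquitin-conjugating enzymes UBE2C and UBE2S, its inhibitors FBXO5 and FBXO43, the SCF receptor SKP2 with the small adaptors CKS1B and CKS2, and the APC/C substrate PTTG1. The libraries came from RPE1, an immortalised human retinal pigment epithelial cell line, grown in medium with serum. One group was given 2.5 µM Nutlin-3 for 24 h and the other its vehicle DMSO for 24 h, with 3 libraries each. Nutlin-3 is a small molecule that binds MDM2 and frees the transcription factor p53 from it. The series was made to find target genes of p53.

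Both ligases mark cell cycle proteins with ubiquitin for destruction by the proteasome. The APC/C works from mitosis into G1: CDC20 brings it to securin and cyclin B at anaphase, and FZR1 (CDH1) takes over at mitotic exit and holds it active through G1. SCF with SKP2 works in late G1 and S phase, when it removes the CDK inhibitor p27 with the help of CKS1B. RNA for most of these partners is known to be highest in G2 and mitosis of dividing cells. In RNA from a whole culture, fewer cells in a cycle phase and less RNA per cell cannot be told apart.

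Many promoters of mitotic genes carry a CHR element, TTTGAA, a site for complexes of the MuvB core, close to CCAAT boxes, which bind NF-Y. RefSeq promoter windows (GRCh38.p14, 250 bases before to 50 after an annotated start) were examined for 8 of the 10 genes, in 11 windows. No window was at hand for UBE2C. FBXO43, the gene with the steepest relative fall, was left out of the motif search, so the motif counts do not cover it. Shown are the 5 windows that held TTTGAA: those of CDC20, CKS1B and CKS2, and 1 window each of FBXO5 and of FZR1, whose RNA fell least. The windows shown thus go by the motif and not by the fall. PTTG1, at 39.0% of its DMSO level against 38.8% for CKS1B, held no TTTGAA and is not shown. Capitals mark TTTGAA and CCAAT on either strand, so that TTCAAA and ATTGG are the same motifs read from the other strand.
CDC20, chr1:43358731-43359030, plus strand: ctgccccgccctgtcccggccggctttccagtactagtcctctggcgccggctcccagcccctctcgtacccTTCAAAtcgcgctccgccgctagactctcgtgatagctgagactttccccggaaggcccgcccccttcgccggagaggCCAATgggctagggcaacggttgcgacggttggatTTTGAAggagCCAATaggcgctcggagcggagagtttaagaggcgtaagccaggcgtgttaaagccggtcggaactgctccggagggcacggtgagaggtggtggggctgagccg
FBXO5, chr6:152982992-152983291, minus strand: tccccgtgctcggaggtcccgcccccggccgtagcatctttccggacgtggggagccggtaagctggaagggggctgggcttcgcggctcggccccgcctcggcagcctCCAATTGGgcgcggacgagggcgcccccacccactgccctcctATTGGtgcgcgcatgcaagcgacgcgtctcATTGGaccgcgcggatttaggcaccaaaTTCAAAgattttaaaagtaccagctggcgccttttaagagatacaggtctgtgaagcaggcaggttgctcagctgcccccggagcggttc
CKS1B, chr1:154974431-154974730, plus strand: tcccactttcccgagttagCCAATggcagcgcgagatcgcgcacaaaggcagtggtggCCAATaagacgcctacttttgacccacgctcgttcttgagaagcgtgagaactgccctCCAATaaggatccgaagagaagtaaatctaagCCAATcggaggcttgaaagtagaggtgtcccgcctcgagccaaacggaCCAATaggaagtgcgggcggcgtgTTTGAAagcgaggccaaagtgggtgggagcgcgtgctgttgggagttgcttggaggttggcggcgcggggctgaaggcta
CKS2, chr9:89310945-89311244, plus strand: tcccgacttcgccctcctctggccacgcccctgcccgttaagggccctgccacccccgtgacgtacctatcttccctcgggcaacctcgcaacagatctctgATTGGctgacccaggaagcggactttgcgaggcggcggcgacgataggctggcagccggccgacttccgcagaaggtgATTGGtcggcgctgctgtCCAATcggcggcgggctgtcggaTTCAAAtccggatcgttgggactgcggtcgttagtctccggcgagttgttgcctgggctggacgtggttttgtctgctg
FZR1, chr19:3506061-3506360, plus strand: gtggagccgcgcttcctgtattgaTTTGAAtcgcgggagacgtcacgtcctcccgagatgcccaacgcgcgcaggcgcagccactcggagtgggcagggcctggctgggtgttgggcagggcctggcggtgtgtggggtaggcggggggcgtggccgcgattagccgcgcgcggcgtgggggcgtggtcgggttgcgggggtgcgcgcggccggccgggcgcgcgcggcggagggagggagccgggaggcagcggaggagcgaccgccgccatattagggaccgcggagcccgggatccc

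In the CKS1B window TTTGAA lay at positions -30 to -25 from the annotated start, behind 5 CCAAT boxes. The CKS2 window held the motif at -29 to -24, on the other strand, and 3 CCAAT boxes. FBXO5 held it at -40 to -35 in the window of one of its starts, with 4 CCAAT matches of which 2 overlap each other in the palindrome CCAATTGG, and held neither motif in the window of its other start. CDC20 had TTTGAA at -65 to -60 between 2 CCAAT boxes and a second match at -178 to -173. FZR1 had 1 TTTGAA, far from the start at -226 to -221, and no CCAAT in the window shown, and neither motif in the window of its other start. The UBE2S window and both PTTG1 windows held CCAAT without TTTGAA, and the SKP2 window held neither. TTTGAA was found in 15.2% of all 35116 promoter windows of this length, CCAAT in 34.6% and both together in 5.90%. An E2F-type site (TTTCCCGC, TTTCGCGC, TTTGCCGC or TTTGGCGC on either strand) was in 0 of the 11 windows and in 3.31% of all windows. The same palindrome gave an overlapping pair of CCAAT matches in each PTTG1 window, and no other matches overlapped. The 2 PTTG1 windows themselves overlap, and their CCAAT matches are the same bases counted from 2 starts. A match is a description of the letters, not a bound site.

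Values are the deposited RPKM, reads per kilobase of gene for every 1000000 of a library size set by the authors, and changes are given on log2(RPKM + 0.5), Nutlin-3 over DMSO. This scale understates the change of low genes, so the change on reads recovered from the RPKM is given beside it for the low genes. Percentages of the DMSO level are ratios of mean RPKM. The library sizes behind the RPKM were 30.4 to 35.8 M in Nutlin-3 and 29.8 to 42.3 M in DMSO (M, 1000000 reads). They are not the reads of the libraries: the reads recovered from the RPKM came to 1.01 to 1.03 times the library size in Nutlin-3 and 0.948 to 0.965 times in DMSO libraries. Scaling to total recovered reads instead, tried after seeing the data, lowers every log2 ratio of Nutlin-3 to DMSO RPKM by 0.096 and puts the median change of all genes at -0.05. CDKN1A, the p53 target that encodes p21, stood at 57.8, 62.0 and 61.8 RPKM in Nutlin-3 libraries, against 7.88, 8.38 and 8.81 RPKM in DMSO libraries. MDM2, another p53 target, stood at 8.27, 8.71 and 8.40 RPKM in Nutlin-3 libraries, against 2.23, 2.30 and 2.40 RPKM in DMSO libraries. Of the markers of pigment epithelium, RPE65 averaged 0.000959 and 0.00192 RPKM in Nutlin-3 and DMSO libraries and TTR and DCT were listed at 0, while OTX2 averaged 2.60 and 3.18 RPKM and RDH5 4.62 and 2.93 RPKM. The epithelial keratins KRT18, KRT8 and KRT7 averaged 70.8, 7.08 and 0.895 RPKM in Nutlin-3 libraries, against 40.6, 4.22 and 0.675 RPKM in DMSO libraries. Markers of other cell types, among them blood, vessel, liver and neuron, reached at most 0.0719 RPKM in any library (7 of 8 matched an ID), with CDH5 listed at 0. Of 16 pigment epithelial and epithelial markers 5 reached a mean of 0.5 RPKM, of which OTX2 was lower and the other 4 higher (limma adjusted p under 0.05). On reads 10 of the 16 were tested, of which 1 was lower, 4 were higher and 5 did not pass. The 16 summed to 83.2 to 88.3 RPKM in Nutlin-3 libraries, against 50.1 to 54.1 RPKM in DMSO libraries, most of it KRT18. The part of these markers in the results was not tested.

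All 10 genes were lower with Nutlin-3, but by very different amounts, from FBXO43 at 25.7% of its DMSO level to FZR1 at 79.3%. In each of them every Nutlin-3 library lay below every DMSO library, which held for 27.4% of the 12212 genes tested. Each fall passed limma's test at an adjusted p under 0.05, as did 22.5% of all tested genes in that direction. The Nutlin-3 mean lay below 0.5 of the DMSO mean for 7 of the 10 genes, and for 3.41% of all tested genes. Changes passed the test below -1 for 6 of them on log2(RPKM + 0.5), against 1.74% of all genes, and for 7 of them on reads, against 3.34% of the 20728 genes tested that way. A gene entered the test on RPKM where its mean over the 6 libraries was 0.5 or more. FBXO43 passed this minimum only through its DMSO libraries, whereas the other 9 passed in Nutlin-3 libraries alone too. On reads, where the minimum was a mean of 10, the 10 genes held 77 to 5193 reads in every library, and limma voom called each of them lower (24.3% of all genes tested on reads, with 25.9% higher and 50.3% in either direction).

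**Figure D1:**
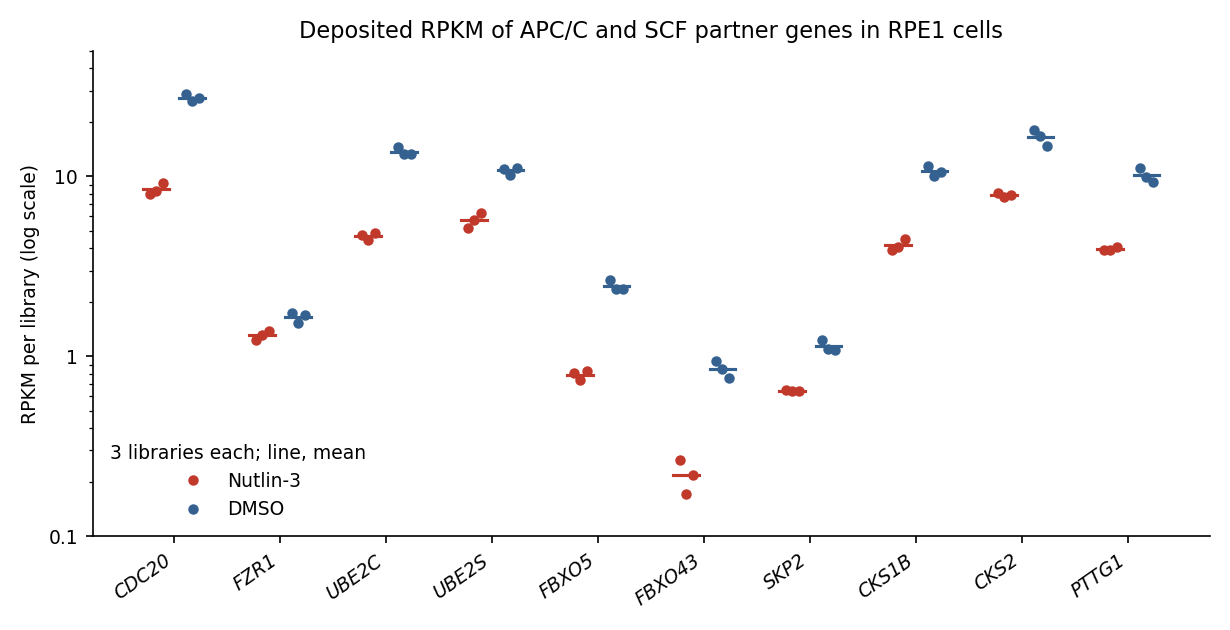
RPKM of the 10 genes in each library on a log axis, with Nutlin-3 (red) left of DMSO (blue), points for the 3 libraries of each group and a line for their mean. The groups do not overlap for any gene, and the gap is narrowest for FZR1 (1.23 to 1.39 in Nutlin-3 and 1.52 to 1.74 in DMSO).

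The APC/C activators parted. CDC20 (ENSG00000117399), the activator of early mitosis and the target of the spindle checkpoint, had 8.02, 8.26 and 9.22 RPKM in Nutlin-3 libraries, against 28.9, 26.3 and 27.2 RPKM in DMSO libraries. Its highest Nutlin-3 library was far under its lowest DMSO library, and its mean was 30.9% of the DMSO level. The log2 change was -1.64 (SE 0.063, limma adjusted p = 5.56e-05). It ranked 17 from the lowest of the 12212 genes tested on this scale and 137 of the 20728 tested on reads, where its change was -1.70. FZR1 (ENSG00000105325), the activator of late mitosis and G1, had 1.23, 1.32 and 1.39 RPKM in Nutlin-3 libraries, against 1.74, 1.52 and 1.69 RPKM in DMSO libraries. The groups lay close together without overlap, and the change was -0.25 (SE 0.053, limma adjusted p = 0.0109) and -0.34 on reads (limma voom adjusted p = 8.14e-06). FZR1 shares 1.21% of its exon length with MFSD12 on the opposite strand.

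Within each library the log2 ratio of CDC20 to FZR1 does not depend on scaling. It was 2.71, 2.65 and 2.73 in Nutlin-3 libraries, against 4.06, 4.11 and 4.01 in DMSO libraries, a difference of -1.36 (SE 0.039). Relative to FZR1, CDC20 RNA was thus at 0.390 times its DMSO level, and the spread within each group was small beside that difference. A 2-sided exact permutation over libraries returned p = 0.1, the lowest value possible with 3 against 3, and an adjusted p of 0.133 over the 4 ratios compared here. Since the ratio was formed from deposited RPKM made with one gene length per gene, only its change has a meaning, not its level.

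The ubiquitin-conjugating enzymes of the APC/C fell unequally as well. UBE2C (UBCH10, ENSG00000175063), which places the first ubiquitins on a substrate, had 4.73, 4.43 and 4.87 RPKM in Nutlin-3 libraries, against 14.6, 13.3 and 13.3 RPKM in DMSO libraries. All 3 Nutlin-3 libraries were close together and far under the DMSO libraries, at 34.1% of their mean. The change was -1.46 (SE 0.053, limma adjusted p = 5.21e-05). UBE2S (ENSG00000108106), which lengthens the chain through lysine links, had 5.19, 5.74 and 6.30 RPKM in Nutlin-3 libraries, against 11.1, 10.2 and 11.2 RPKM in DMSO libraries. Its Nutlin-3 mean was 53.1% of the DMSO level, a change of -0.86 (SE 0.076, limma adjusted p = 0.000458).

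The log2 ratio of UBE2C to UBE2S was -0.13, -0.37 and -0.37 in Nutlin-3 libraries, against 0.40, 0.39 and 0.24 in DMSO libraries. No library of one group reached the other, and the difference was -0.63 (SE 0.094, exact permutation p = 0.1, adjusted p = 0.133 over the 4 ratios). UBE2S has processed pseudogenes with many assigned reads. UBE2SP1 held 324, 359 and 268 reads in Nutlin-3 libraries, against 736, 444 and 575 in DMSO libraries, and UBE2SP2 held 213, 254 and 264 reads, against 648, 441 and 471. Over all libraries these came to 24.6% and 20.8% of the reads of UBE2S itself. The reads of UBE2S were taken from ratios between libraries and could be too low by a whole factor. Both shares could then be too high, as could the weight of the copies in a sum with UBE2S. Near-identical copies can take reads from their parent, so the level of UBE2S is uncertain. With the reads of both copies added, UBE2S was at 53.5% of its DMSO level. The 4 UBE2C pseudogenes held at most 10 reads in any library.

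Of the APC/C inhibitors, FBXO5 (EMI1, ENSG00000112029) keeps the ligase off through S and G2 phase of dividing cells. It had 0.813, 0.738 and 0.824 RPKM in Nutlin-3 libraries, against 2.66, 2.38 and 2.36 RPKM in DMSO libraries. The groups were well apart, at 32.1% of the DMSO level. The change was -1.20 (SE 0.051, limma adjusted p = 6.25e-05) and -1.65 on reads. FBXO5 shares 4.10% of its exon length with AL080276.2 on the opposite strand. FBXO43 (EMI2, ENSG00000156509) is known for holding the egg in the second meiotic metaphase, and was the lowest of the 10 here. It had 0.265, 0.173 and 0.220 RPKM in Nutlin-3 libraries, against 0.945, 0.855 and 0.754 RPKM in DMSO libraries. These stand for 104, 77 and 83 reads in Nutlin-3 libraries, against 497, 317 and 304 reads in DMSO libraries. The groups did not overlap and the Nutlin-3 mean was 25.7% of the DMSO level, the steepest relative fall of the 10. On log2(RPKM + 0.5) the change was -0.91 (SE 0.071, limma adjusted p = 0.000318), and with the smaller pseudocount of 0.1 it was -1.58. On reads the change was -1.99 (SE 0.13, limma voom adjusted p = 1.08e-11). FBXO43 ranked 285 from the lowest of the 12212 genes on log2(RPKM + 0.5) and 26 of the 20728 on reads.

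Whether the inhibitors fell by different amounts was not settled. The log2 ratio of FBXO5 to FBXO43 was 1.62, 2.09 and 1.91 in Nutlin-3 libraries, against 1.49, 1.48 and 1.65 in DMSO libraries. The groups overlapped, with a difference of 0.34 (SE 0.15, exact permutation p = 0.2, adjusted p = 0.2 over the 4 ratios). With 0.5 added to each RPKM the difference was -0.29, so its sign depends on the pseudocount.

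**Figure D2:**
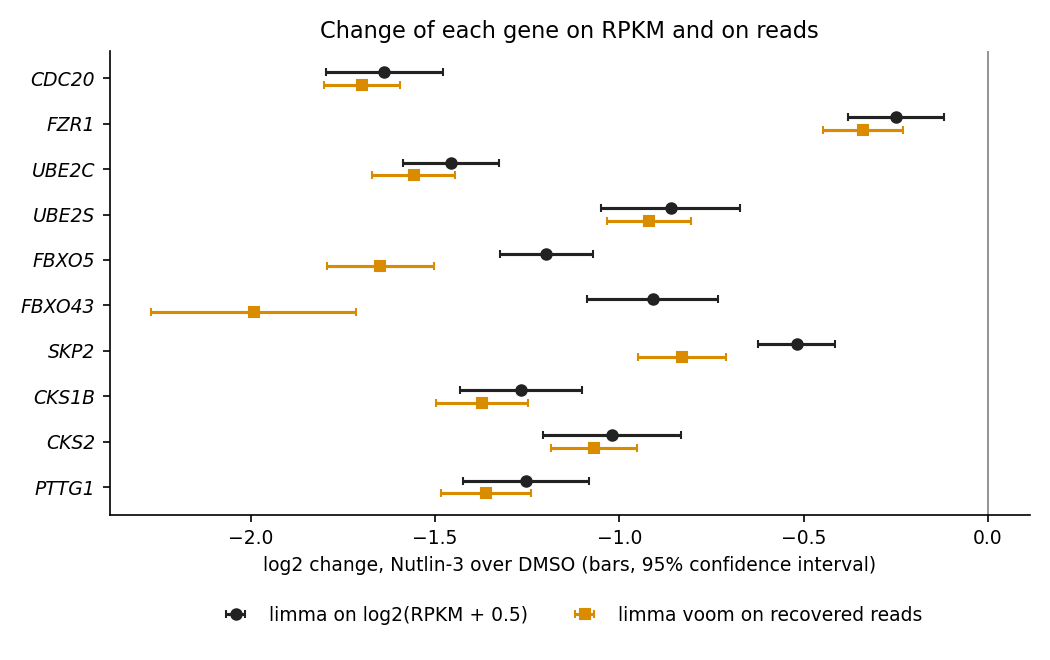
log2 change of each gene, Nutlin-3 over DMSO, with its 95% confidence interval, by limma on log2(RPKM + 0.5) (black circles) and by limma voom on recovered reads (orange squares). FZR1 lies nearest to 0 on both scales, while FBXO5, FBXO43 and SKP2, which have low RPKM, lie further from 0 on reads than on RPKM.

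On the SCF side, SKP2 (ENSG00000145604), the F-box protein that recognises phosphorylated p27, had 0.653, 0.638 and 0.640 RPKM in Nutlin-3 libraries, against 1.24, 1.10 and 1.08 RPKM in DMSO libraries. The Nutlin-3 libraries were nearly equal and all under the DMSO libraries, at 56.5% of their mean. The change was -0.52 (SE 0.042, limma adjusted p = 0.000355) and -0.83 on reads (limma voom adjusted p = 2.01e-11). CKS1B (ENSG00000173207), the cofactor with which SKP2 grips p27, had 3.93, 4.05 and 4.49 RPKM in Nutlin-3 libraries, against 11.5, 10.1 and 10.6 RPKM in DMSO libraries. It fell to 38.8% of the DMSO level, a change of -1.27 (SE 0.066, limma adjusted p = 9.58e-05). CKS2 (ENSG00000123975), its paralog, also binds cyclin-dependent kinases, and had 8.08, 7.69 and 7.91 RPKM in Nutlin-3 libraries, against 18.1, 16.8 and 14.8 RPKM in DMSO libraries. It fell to 47.6% of the DMSO level, a change of -1.02 (SE 0.075, limma adjusted p = 0.000264).

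The log2 ratio of CKS1B to CKS2 was -1.04, -0.93 and -0.82 in Nutlin-3 libraries, against -0.66, -0.74 and -0.49 in DMSO libraries. The groups came close to each other without overlap, and the difference was -0.30 (SE 0.099, exact permutation p = 0.1, adjusted p = 0.133 over the 4 ratios). Of the CKS1B pseudogenes, CKS1BP2 held reads equal to 8.01% of those of CKS1B and CKS1BP3 1.96%, and the other 4 at most 7 reads in a library. CKS1BP2 had 53, 51 and 43 reads in Nutlin-3 libraries, against 178, 112 and 127 in DMSO libraries.

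**Figure D3:**
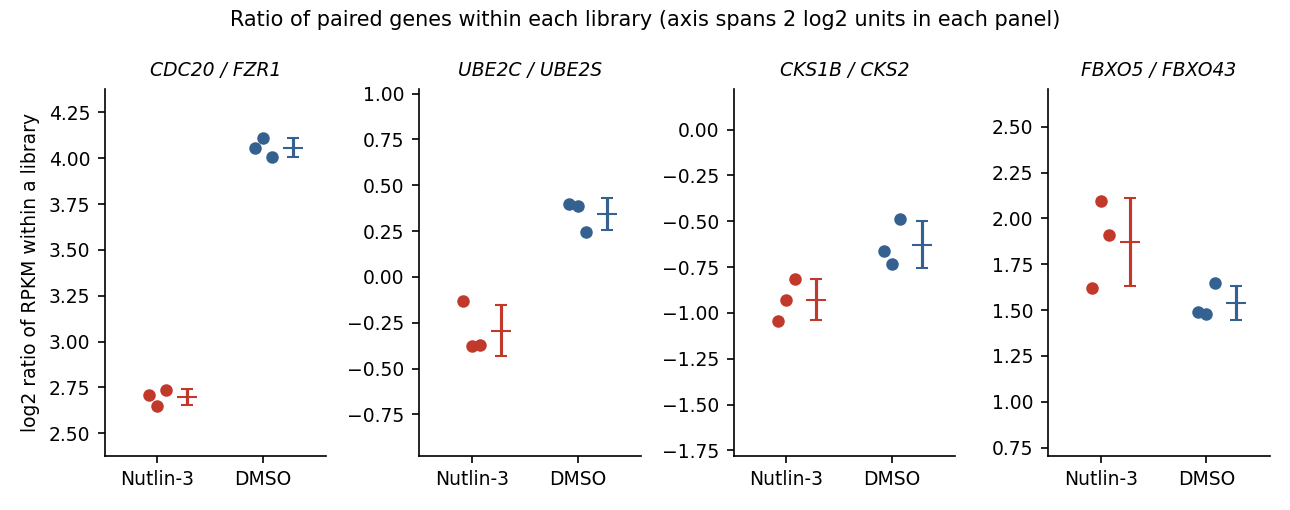
log2 ratio of RPKM within each library for 4 gene pairs, with points for the 3 libraries of each group (Nutlin-3 red, left; DMSO blue, right) and the mean with its SD beside them. Each axis spans the same 2 log2 units. The groups are separate for CDC20 to FZR1 (difference -1.36), UBE2C to UBE2S (-0.63) and CKS1B to CKS2 (-0.30), and overlap for FBXO5 to FBXO43.

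PTTG1 (securin, ENSG00000164611) holds separase inactive until the APC/C destroys it at anaphase. It had 3.88, 3.92 and 4.07 RPKM in Nutlin-3 libraries, against 11.2, 9.95 and 9.30 RPKM in DMSO libraries. The Nutlin-3 libraries were tightly grouped and at 39.0% of the DMSO mean, and the change was -1.25 (SE 0.069, limma adjusted p = 0.000108). The near copies PTTG2, PTTG3P and PTTG4P held at most 1 read in any library. A pseudogene of CDC20, CDC20P1, held reads equal to 2.17% of those of CDC20.

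The deposited RPKM divide by the whole gene span, introns included. Levels of different genes were therefore compared as reads per kilobase of merged exon for every 1000000 reads. No label says whether reads in introns were counted. If they were, this scale overstates genes with long introns. FZR1 spans 32058 bases and SKP2 32331, against 4249 for CDC20, so the order of genes given here is uncertain. On that scale CKS2 stood highest, at 70.9 ± 1.75 in Nutlin-3 and 149 ± 15 in DMSO libraries (mean ± SD, n = 3 each). The merged exon length of CKS2 is 613 bases, the shortest of the 10, and that of FZR1 is 5802 bases. CDC20 followed with 17.7 ± 1.33 in Nutlin-3 and 57.3 ± 2.77 in DMSO libraries, then UBE2C with 15.9 ± 0.772 and 46.7 ± 2.55. PTTG1 at 13.6 ± 0.330 and UBE2S at 13.4 ± 1.29 could not be told apart in Nutlin-3 libraries, whereas in DMSO libraries PTTG1 stood at 34.9 ± 3.33 and UBE2S at 25.2 ± 1.32. CKS1B had 8.17 ± 0.582 in Nutlin-3 and 21.0 ± 1.38 in DMSO libraries. SKP2 had 5.43 ± 0.0682 in Nutlin-3 and 9.61 ± 0.723 in DMSO libraries, and FZR1 7.24 ± 0.443 and 9.13 ± 0.622. In DMSO libraries the ranges of SKP2, FZR1 and FBXO5 (8.40 ± 0.569) ran into one another in that order, while in Nutlin-3 libraries FZR1 was above SKP2 and SKP2 above FBXO5 (2.70 ± 0.159), each without overlap. FBXO43 was lowest, at 0.690 ± 0.145 in Nutlin-3 and 2.68 ± 0.301 in DMSO libraries. Merged exons count every annotated isoform, and the reads of UBE2S, FBXO5 and PTTG1 were taken from ratios between libraries, so their levels could be too low by a whole factor.

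For each of the 8 genes whose mean reached 1 RPKM, the gene with the nearest profile was sought among 8709 others, by Euclidean distance of log2(RPKM + 0.5) centred over the 6 libraries. For CDC20 it was HMGB2 (distance 0.0677), for UBE2C it was MAD2L1 (0.0623), for CKS1B CCNB2 (0.0660) and for PTTG1 CDCA5 (0.0600). XRCC3 was nearest to FBXO5 (0.0326) and DSN1 to CKS2 (0.103). FZR1 was nearest to XRCC6P2 (0.0434), which stood at 81.8% of its DMSO level, and UBE2S to DBF4P1 (0.0930). DSN1 stood at 34.1% of its DMSO level, against 47.6% for CKS2, and DBF4P1 at 41.5%, against 53.1% for UBE2S. Near on this scale therefore does not mean an equal percentage, since the pseudocount compresses the change of low genes.

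Changes among the core subunits of the APC/C were small beside those of CDC20, UBE2C and UBE2S, and about as large as that of FZR1 for the core genes that fell most. Of 14 core subunits 13 were tested on RPKM, and 5 fell, 2 rose and 6 did not pass, with a median change of -0.11, against a median of 0.02 over all genes tested. In all, 51.6% of tested genes passed, 22.5% lower and 29.1% higher. These were 2745 lower and 3551 higher genes, against 4026 lower and 2457 higher of 12249 tested with scaling to total recovered reads. The largest falls were those of ANAPC1, the biggest scaffold subunit, at -0.23 (SE 0.024, limma adjusted p = 0.000770) and -0.46 on reads, and of CDC23 at -0.22 and CDC27 at -0.21 (-0.30 and -0.26 on reads), subunits of the arm that receives CDC20 and FZR1. ANAPC1 passed the minimum of 0.5 RPKM only through its DMSO libraries. ANAPC16 and CDC16 rose by 0.13 and 0.08, but neither passed with scaling to total recovered reads, where 7 of the 13 fell and 0 rose. ANAPC4, at the median of the list, had 1.02 ± 0.0734 RPKM in Nutlin-3 and 1.14 ± 0.0725 RPKM in DMSO libraries and did not pass (limma adjusted p = 0.129), though it passed on reads (limma voom adjusted p = 0.0158) and with that scaling (limma adjusted p = 0.0373). On reads 8 of 14 fell and 2 rose, with a median of -0.15 against 0.00443 over all genes.

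Changes in the SCF core were small in either direction. Of 12 genes of the SCF core and of its activation by NEDD8, 3 fell, 2 rose and 7 did not pass, with a median of -0.01. Over all genes tested 22.5% were lower and 29.1% higher, shares that apply to the lists below too. On reads 5 of the 12 fell, 3 rose and 4 did not pass, with a median of -0.01, against 24.3% lower and 25.9% higher over all genes. NAE1, a subunit of the NEDD8-activating enzyme, changed by -0.23 (-0.39 on reads), the exchange factor CAND1 by -0.20 and the cullin CUL1 by -0.18 (-0.30 on reads). CDC34, a ubiquitin-conjugating enzyme of SCF, rose by 0.15 and the adaptor SKP1 by 0.09, and the ubiquitin-like NEDD8 rose on reads alone, by 0.18. With scaling to total recovered reads 5 of the 12 fell and 0 rose. UBA3 and UBE2M, either side of the median, stood at 99.3% of their DMSO levels each and did not pass. Of 9 other F-box genes of the cell cycle, 4 were tested, 2 fell and 1 rose. CCNF (cyclin F) changed by -1.06 (-1.59 on reads), to 33.3% of its DMSO level, and FBXO4 by -0.22 (-0.45 on reads), while FBXO7 did not pass (-0.03). FBXO4 passed the minimum only through its DMSO libraries. FBXO28 rose by 0.09 but did not pass with scaling to total recovered reads. With that scaling FBXO7 was lower (limma adjusted p = 0.0279), and 3 of the 4 fell and 0 rose. On reads, with all 9 tested, 2 fell and 2 rose.

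Genes of the spindle checkpoint, whose products hold CDC20 inactive until chromosomes are attached or, as TRIP13 and MAD2L1BP do, release it, fell with it. Of 8 listed, 7 were tested on RPKM, 6 fell and 1, MAD2L1BP, did not pass (limma adjusted p = 0.0961, against 0.0195 with scaling to total recovered reads), with a median of -1.09. MAD2L1, which binds CDC20 directly, fell to 1.87 ± 0.0622 RPKM in Nutlin-3 libraries, against 6.04 ± 0.457 RPKM in DMSO libraries, a change of -1.46. BUB1B, its partner in the checkpoint complex, and the kinase BUB1 changed by -1.24 and -1.22 (-1.79 and -1.63 on reads), and the kinase TTK, at the median of the list, by -1.09 (-1.76 on reads). TTK passed the minimum of 0.5 RPKM only through its DMSO libraries. On reads all 8 fell, with a median of -1.55.

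Substrates that the APC/C destroys also moved at the level of RNA. All 24 tested on RPKM of 26 listed fell, with a median of -1.30, and all 25 tested on reads fell, with a median of -1.63. SGO1 (0.239 RPKM in Nutlin-3, 0.789 in DMSO libraries) and CDC25A (0.325 and 0.809) passed the minimum of 0.5 RPKM only through their DMSO libraries. The list holds mostly genes known to peak in S phase to mitosis, and the full series had already shown their fall, so the count is no independent evidence. The largest changes were -1.76 for RRM2, of ribonucleotide reductase, -1.75 for cyclin A2 (CCNA2) and -1.64 for the kinase AURKB. CDCA5 (sororin) and CDC6, either side of the median, stood at 30.8% and 33.2% of their DMSO levels.

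Substrates of SKP2 went both ways. Of 10 listed, 6 were tested, 3 fell, 2 rose and RBL2 did not pass, with a median of -0.12. On reads all 10 were tested, 5 fell and 2 rose, with a median of -0.21. The steepest fall on reads was that of ORC1, of the origin recognition complex, at -1.99, and CCNE1 (cyclin E1) fell by 0.38; both are below the RPKM minimum. With scaling to total recovered reads RBL2 was lower as well (limma adjusted p = 0.0497). CDKN1A rose by 2.78, to 7.24 times its DMSO level, and the antiproliferative TOB1 rose by 0.55. E2F1 changed by -1.42 and the replication licensing factor CDT1 by -1.34 (-1.78 and -1.66 on reads). CDKN1B, which encodes p27, the best known substrate, fell by 0.22 on the log2 scale, with 9.09 ± 0.463 RPKM in Nutlin-3 and 10.7 ± 0.748 RPKM in DMSO libraries (limma adjusted p = 0.0301). Of the proteins that securin guards, separase (ESPL1) changed by -1.28 (-1.87 on reads), with 0.600 ± 0.0425 RPKM in Nutlin-3 and 2.18 ± 0.145 RPKM in DMSO libraries. The cohesin ring genes RAD21 and SMC1A changed by -0.88 and -0.81, and all 4 tested of the 6 genes of that list fell, as did all 6 on reads.

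**Figure D4:**
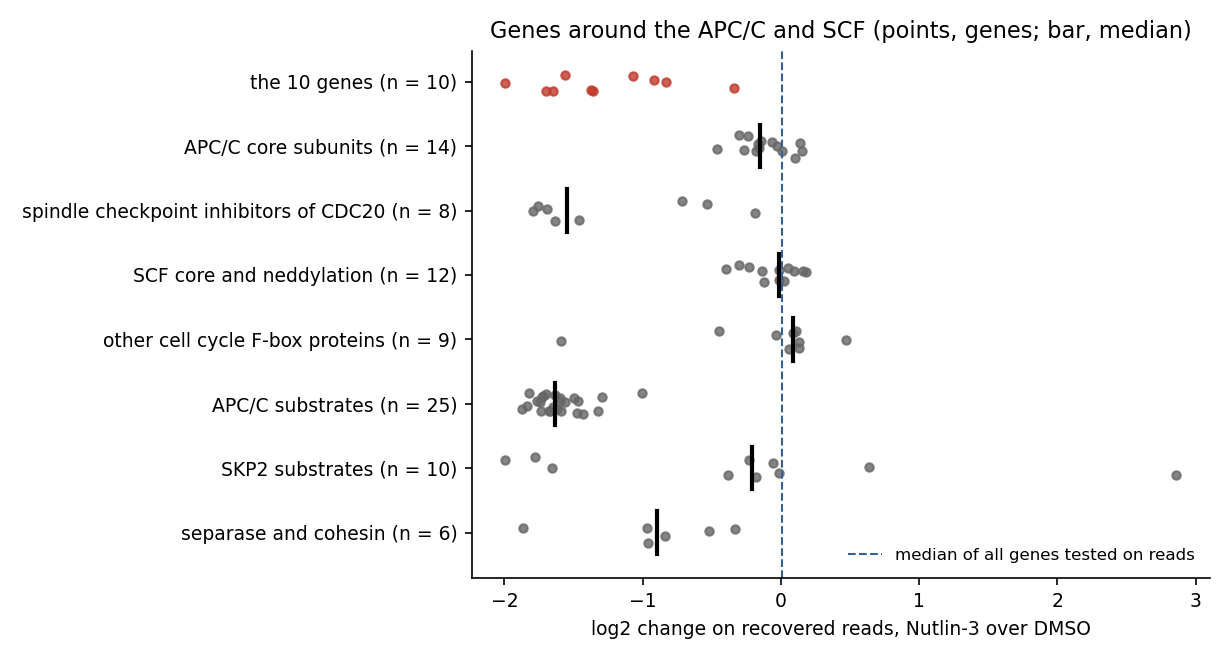
log2 change on recovered reads, Nutlin-3 over DMSO, of the 10 genes (red) and of 7 lists around them (grey), 1 point per gene, with a bar at each list's median and a dashed line at the median of all genes tested. APC/C core subunits (median -0.15) and SCF core genes (-0.01) sit near the dashed line, while spindle checkpoint genes (-1.55) and APC/C substrates (-1.63) lie far to the left.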

How the data were processed

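RNA from RPE1 cells was sequenced from stranded poly(A) libraries, per the labels' protocols. CASAVA 1.8.2, TopHat2, edgeR and hg19 are named without roles, per the submitters' processing notes; for the counter, its annotation and its strand setting no label gives a name. The deposited values are RPKM made by the authors, 1 column per library, each matched by name to a library title. The labels do not say whether replicates were separate cultures, so p-values measure only how these libraries scatter, possibly for technical reasons.

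Low RPKM values were whole reads within 0.01 for 89.0% with the gene span of GENCODE 29 and for 25.3% with exon length, so the authors divided by gene span. Reads were recovered by span for 27848 genes and from ratios between libraries for 8514. They came to 31.4 to 36.7 M in Nutlin-3 and 28.3 to 40.8 M in DMSO libraries. Replicates differed by more than counting noise in every pair (chi-square per gene 1.63 to 4.82 within groups).

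limma 3.58.1 (R 4.3.3; lmFit, eBayes with trend, group as the only term) was run on log2(RPKM + 0.5) over the 12212 genes whose mean reached 0.5 RPKM, with Benjamini-Hochberg adjustment over them and a threshold of 0.05. limma voom on recovered reads (mean of at least 10, the authors' library sizes) was an alternative, as were other pseudocounts, minimums and scalings, a replicate block and leaving out each library. Scaling to total recovered reads was added after seeing the data, since the library sizes behind the RPKM differed from those totals in opposite directions in the groups. Ratios were tested with exact permutation (scipy 1.17.1). The methods were tested on simulated data. The 10 genes and the lists were chosen with earlier results of these data known. By rule, up to 3 falls and 2 rises per list and the genes at its median are named, with CDKN1A and MDM2 as a check of the treatment and the nearest profile to each of the 8 genes whose mean reached 1 RPKM. NEDD8, ORC1, CCNE1, the pseudogenes and the markers of cell identity were picked with their values in view. Of 113 list symbols 111 matched an ID. hg19 coordinates were not used, and motif windows come from RefSeq on GRCh38.p14.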

Additional observations from a re-analysis of the deposited data

How the results depend on the processing

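Over 145 recomputed changes of the 10 genes, all kept their direction and passed an adjusted p under 0.05. The settings were other pseudocounts, minimums and scalings, limma voom on reads, a replicate block, each library left out and, added after seeing the data, scaling to total recovered reads. SKP2 and FBXO43 were not tested with a minimum mean of 1 RPKM, nor FBXO43 without any 1 DMSO library, as they then missed the minimum. FZR1 came nearest to the threshold, with an adjusted p of 0.0382 without DMSO replicate 3. The size of change depended on the pseudocount for low genes, with FBXO43 between -0.60 at a pseudocount of 1 and -1.99 on reads, and SKP2 between -0.38 and -0.83. Over all genes 6296 changed, 3551 of them higher. With scaling to total recovered reads 6483 did, 2457 of them higher, and small rises in the APC/C and SCF core were lost. On reads 10422 of 20728 did, where more genes were tested, and with 1 library left out 5088 to 5560.

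With 0.5 added to each RPKM, the change of the FBXO5 to FBXO43 ratio reversed to -0.29; FBXO43 is low enough for 0.5 to outweigh its RPKM in Nutlin-3 libraries. With 1 library left out the change of the ratio was between -1.38 and -1.33 for CDC20 to FZR1, -0.71 and -0.59 for UBE2C to UBE2S, -0.36 and -0.23 for CKS1B to CKS2 and 0.23 and 0.46 for FBXO5 to FBXO43. No shared effect of the replicate number was seen, as deviations of same-numbered libraries correlated at -0.0246, 0.00795 and 0.0174. These values cannot tell whether same-numbered libraries were handled together. With the replicate block 5135 genes were called and all 10 genes stayed lower, with FZR1 at an adjusted p of 0.0353. Pairing left the ratio changes at -1.36, -0.63, -0.30 and 0.34, each with an exact p of 0.25, the smallest 3 pairs allow. Depth limits FBXO43 most, at 77 to 497 reads per library.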
